A study of Ovis aries with 2 samples.

Results

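SOX4-positive, SOX13-high T cells were examined in blood mononuclear cells of sheep. These cells carried T-cell receptor complex transcripts, at least 2 transcripts of SOX13 and RHEX together, no CD4, CD8B or IL1R1, and at least 1 SOX4 transcript. The members were picked from raw transcript counts, read as unique molecular identifiers (UMIs, the tags that mark single captured molecules). A barcode with at least 200 detected genes and at most 15% mitochondrial UMIs was a member when it held at least 1 UMI of CD3D and CD3E together, at least 2 UMIs of SOX13 and RHEX together, 0 UMIs of CD4, CD8B and IL1R1, at most 1 UMI of MS4A1, CD79B and PAX5 together, and at least 1 UMI of SOX4. CD3G belongs to the rule but is not among the gene names of the files, so it took no part. The rule found 1228 members among 8088 kept barcodes of the untreated library and 327 among 9452 of the library labelled A.G.-ES, 1555 of 17540 in all. The same gate with 0 SOX4 UMIs held 778 and 603 cells, and these SOX4=0 cells were the comparison.

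The series profiled freshly isolated, uncultured sheep mononuclear cells by droplet capture of transcript 3′ ends. The untreated library came from sheep without treatment. The other, labelled A.G.-ES, came from sheep that had a drug-eluting suture carrying astragaloside IV and glycyrrhizic acid embedded at the ST36 acupoint on both sides. According to the series title the animals were weaned lambs, and the question concerned regulatory T and Th17 cells. With 1 library per group and no count of animals, nothing here could be tested between treatments: every interval below is a 95% counting interval, which covers neither variation between animals nor that between captures, and cells are not replicates.

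As background, gamma-delta T cells are a large fraction of blood lymphocytes in young ruminants. Many of them carry the scavenger receptor WC1 and lack CD4, CD8 and CD2. SOX13 is an HMG-box transcription factor that marks the gamma-delta lineage in the mouse thymus, and SOX4, a member of the SoxC group of HMG-box factors, acts beside it there in the gamma-delta cells that make IL-17. SOX4 is also known as a TGF-beta target and as a factor of immature lymphocytes, and RHEX is an adaptor protein first described in red cell precursors.

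The label "gamma-delta-like" could be checked only in part. The constant-region genes of the gamma-delta receptor and the WC1 genes were not analysed here, since the gene names of the files do not include them by symbol. Of the genes that chose the members, CD3E, an invariant chain of the receptor complex, stood at 1770.3 CPM (UMIs scaled to a common total per group) in untreated members and 1813 CPM in A.G.-ES members. RHEX stood at 883 and 826 CPM, SOX13 at 309 and 314 CPM. RHEX was detected in 98.1% and 96.6% of members but SOX13 in 70.1% and 70.3%. The rest passed the gate on RHEX without a SOX13 UMI, so "SOX13-high" names the sum of both genes. These levels and shares follow from the gate and are given as a description.

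Genes outside the gate placed the members among T cells. CD247, the zeta chain of the receptor complex, was at 346 CPM in untreated and 261 CPM in A.G.-ES members. That was above its 116 and 117 CPM in CD4 T cells and 193 and 151 CPM in CD8 T cells. SOX4=0 cells were close to the members, at 334 and 230 CPM. GATA3, a T-lineage transcription factor, was at 906 and 1113 CPM and was detected in 87.1% and 95.1% of members. CD2, an adhesion receptor of most other T cells, gave 10 UMIs in all untreated members and 5 in all A.G.-ES members, or 1.91 and 3.49 CPM, against 155 and 149 CPM in CD4 T cells and 109 and 99.8 CPM in CD8 T cells. CD2 was thus near 0 in the members of both libraries, at a depth per cell close to that of the T cells that carried it. It was also low in SOX4=0 cells, at 0.327 and 5.73 CPM, so low CD2 was not particular to members.

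Some genes better known from B cells were also present. BLK, a SRC-family kinase of B cells that mouse gamma-delta cells use too, stood at 421 and 321 CPM, above the 81.3 and 90.4 CPM of gated B cells. CD79A, a chain of the B-cell receptor, was at 336 and 347 CPM in members against 585 and 734 CPM in B cells, and was detected in 72.1% and 71.9% of members. It was also detected in 47.4% and 45.9% of CD8 T cells, and in 8.10% and 3.54% of CD4 T cells. The part of free RNA in CD79A was not tested. The B-cell factors BLNK and EBF1 were low: BLNK at 2.10 and 1.40 CPM (255 and 150 in B cells), and EBF1 at 15.3 and 2.10 CPM. EBF1 stood at 1911 and 1080.4 CPM in B cells of the same libraries.

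Marker lists of other cell types were summed over the members. The 12 monocyte markers came to 163 CPM in untreated and 135 CPM in A.G.-ES members, with CD14 at 2 and 0 UMIs and 1 and 4 of the 12 at 0; in SOX4=0 cells they came to 122 and 169 CPM. The 7 NK markers summed to 99.5 and 111 CPM in members and 87.3 and 168 CPM in SOX4=0 cells. CD8 T markers summed to 9.57 and 10.5 CPM, CD4 T markers to 57.8 and 93.6 CPM, and platelet markers to 23.7 and 14.7 CPM in members. B-cell markers, which include BLK and CD79A, summed to 970 and 845 CPM in members, with 0 and 3 of 14 at 0. In SOX4=0 cells they summed to 924 and 635 CPM. CD34, RAG1, RAG2, DNTT and PTCRA, which mark progenitors and thymocytes, were at 0 UMIs in the members of both libraries. A count of 0 sets a limit on transcripts captured, not on cells that express the gene.

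Both libraries gave members of similar depth. The libraries held 55861418 and 44485442 UMIs, and a member had a median of 4123.5 UMIs if untreated and 4130 if from the A.G.-ES library (3902 and 4352 for SOX4=0 cells). Mitochondrial genes took 1.09% and 1.90% of the members' UMIs. Y-linked genes were detected in 88.2% of untreated and 9.79% of A.G.-ES members, so treatment and the sex of the animals cannot be told apart in any difference between libraries. Of 61 barcodes that occurred in both libraries, 14 were untreated members and 0 were A.G.-ES members. The highest doublet scores fell on 22 untreated members (1.79%) and 15 A.G.-ES members (4.59%), and on 15 (1.93%) and 62 (10.3%) SOX4=0 cells.

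Members made up 15.2% of kept untreated barcodes (14.4 to 16.0%) and 3.46% of kept A.G.-ES barcodes (3.10 to 3.85%). Shares of barcodes depend on every other cell type caught, and fewer SOX13-high cells were caught in the A.G.-ES library to begin with (24.8% against 9.84% of barcodes). Within the SOX13-high gate, SOX4 was detected in 61.2% of the 2006 untreated cells (59.0 to 63.4%). In A.G.-ES cells, 930 in number, the share was 35.2% (32.1 to 38.3%), a gap of 26.1 percentage points. After every cell was thinned to 1500 UMIs, which left out 49 and 9 shallower cells, the shares were 37.6% (35.5 to 39.8%) and 19.9% (17.3 to 22.6%). Median depths of the gated cells were 4041 and 4274 UMIs. As a level, SOX4 stood at 393 CPM (380 to 407) in all gated untreated cells and 161 CPM (149 to 173) in all gated A.G.-ES cells.

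Other cell types put these shares in proportion. Among B cells, whose median depths were 8821 and 5268 UMIs, 1.504% (untreated) and 0.757% (A.G.-ES) had a SOX4 UMI. The shares were 3.91% and 2.32% in CD4 T cells and 5.13% and 2.63% in CD8 T cells. Monocytes reached 12.3% and 11.0%. After thinning to 1500 UMIs, all these were at most 4.35%. The gate held 1228 of the 1686 SOX4-positive barcodes of the untreated library (72.8%) and 327 of 651 (50.2%) of the A.G.-ES ones. SOX13-high cells with an IL1R1 transcript, which the rule leaves out, were SOX4-positive in 63.6% of the untreated library's 22 (40.7 to 82.8%), and in 14.04% (6.26 to 25.8%) of 57 from the A.G.-ES library.

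**Figure D1:**
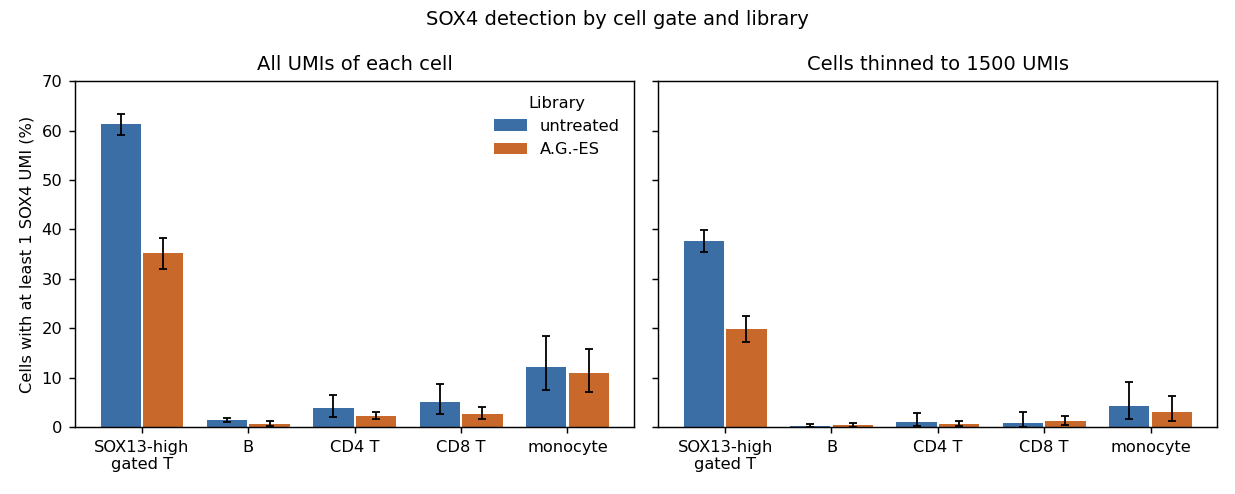
Share of cells with at least 1 SOX4 UMI (vertical axis, %) in SOX13-high gated T cells and 4 other gates, for the untreated (blue) and A.G.-ES (orange) libraries, with all UMIs (left) and after thinning each cell to 1500 UMIs (right). Bars give the share and lines its exact 95% counting interval; the gated cells stand at 61.2% and 35.2% on the left and 37.6% and 19.9% on the right, above the other 4 gates shown.

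Among the members themselves the SOX4 count was low. In the untreated library 448 members held exactly 1 SOX4 UMI (36.5%), 303 held 2 and 477 held 3 or more (38.8%). The A.G.-ES library had 160 members with exactly 1 (48.9%), 85 with 2 and 82 with 3 or more (25.1%). The highest count was 14 in each library. Many members therefore sit on the threshold: after thinning to 1500 UMIs, SOX4 was still found in 60.7% of untreated and 58.0% of A.G.-ES members. SOX4=0 is thus a count of 0 captured transcripts, not an absence of the gene's expression.

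Members also lay near the other thresholds. SOX13 and RHEX together gave exactly 2 UMIs in 195 untreated (15.9%) and 53 A.G.-ES members (16.2%), with a median of 5 in both. Just outside, 101 untreated and 33 A.G.-ES cells met every other condition with 1 UMI. A single UMI of the 3 B-cell genes was present in 114 untreated (9.28%) and 9 A.G.-ES members (2.75%). A further 6 untreated cells and 0 A.G.-ES cells were left out with 2 such UMIs. A CD4 UMI left out 8 and 6 cells, a CD8B UMI 20 and 6 cells, an IL1R1 UMI 14 and 8 cells, and the lack of a CD3 UMI 8 and 6 cells.

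Whether SOX4-positive cells form a group of their own was looked at without using SOX4 or any other gate gene. For each gated cell the 15 nearest cells in the space of 20 principal components were taken, separately per library. Among untreated cells, an average of 63.6% of a member's neighbours were members, and 62.4% of a SOX4=0 cell's neighbours, a difference of 1.19 percentage points. The A.G.-ES library gave 47.3% and 29.6%, a difference of 17.8 points. SOX4-positive cells were therefore spread through the untreated gate and were unevenly placed in the A.G.-ES gate.

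Clusters of the gated cells differed in SOX4 mainly in the A.G.-ES library. Untreated clusters 1 to 4, with 742, 468, 701 and 38 cells, had SOX4 in 60.9%, 62.4%, 61.9% and 63.2% of cells. Cluster 5 of that library, with 57 cells of which 25 had doublet scores among the highest, had 45.6%. In the A.G.-ES library clusters 1, 2 and 4 had SOX4 in 52.9% of 297, 41.2% of 199 and 41.6% of 149 cells. The remaining A.G.-ES clusters 3, 5 and 6 had 14.6% of 89, 5.88% of 136 and 8.33% of 60 cells, and together held 26 of the 327 members and 259 of the 603 SOX4=0 cells.

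The leading genes of these low-SOX4 clusters were PSD3, RGS2 and ERC2 for cluster 3, SLPI, RGCC and IL1RL1 for cluster 5, and CCL5, CXCL8 and GNLY for cluster 6. Doublet scores among the highest fell on 38 of the 89 cells of cluster 3 and 31 of the 60 cells of cluster 6, but on 3 of the 136 cells of cluster 5. SATB1, a chromatin organizer of T cells, stood at 1965, 860 and 2457 CPM in clusters 3, 5 and 6, against 420, 289 and 195 CPM in clusters 1, 2 and 4. KLHL29 was among the leading genes of clusters 3 and 5 and of untreated cluster 5, which also led with RORA, CCL5, GNLY and SETBP1. SOX13 was lowest in clusters 5 and 6 of the A.G.-ES library, at 121 and 127 CPM, with CD3E at 1660 and 1378 CPM. Comparisons of SOX4-positive with SOX4=0 cells were therefore also made without A.G.-ES clusters 3, 5 and 6. These clusters were chosen for their low SOX4 share, so smaller ratios of the genes that lead them follow in part from that choice. Untreated cluster 5 was kept. The number of list genes past 1.5-fold in the A.G.-ES library was 43 with the clusters and 10 without. All genes measured fell from 6301 to 4998, and the share of them past 1.5-fold in that library from 11.4% to 7.12%.

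**Figure D2:**
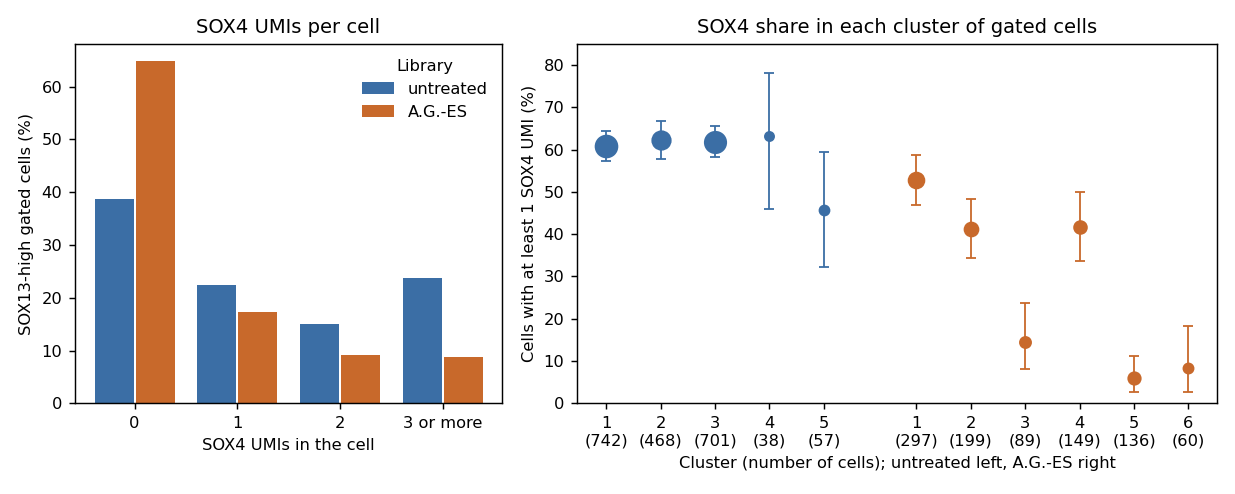
Left, share of SOX13-high gated cells (vertical axis, %) with 0, 1, 2 or at least 3 SOX4 UMIs in the untreated (blue) and A.G.-ES (orange) libraries. Right, share of cells with at least 1 SOX4 UMI in each cluster of gated cells (point area grows with cell number, lines are exact 95% counting intervals); untreated clusters 1 to 4 lie between 60.9% and 63.2%, and A.G.-ES clusters 3, 5 and 6 at 14.6% or below.

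Summed transcripts of members were then compared with those of SOX4=0 cells, gene by gene and in each library. Over 6301 genes with at least 50 UMIs in each library, a gene was counted as different when its CPM ratio reached 1.5-fold. In the untreated library 60 genes (0.952% of those measured) were higher in members and 43 (0.682%) lower, with a median log2 ratio of -0.01. The A.G.-ES library had 345 higher (5.48%) and 372 lower (5.9%), with a median of 0.02. The counting interval lay off 1 for 87 of the 103 untreated and 525 of the 717 A.G.-ES genes. These genes were picked by ratio size, which favours intervals off 1. Simulated counting error alone took 2.86% of unchanged genes past 1.5-fold for untreated cells, where 1.63% were counted. For A.G.-ES cells it took 4.50%, where 11.4% were counted. The simulated gene sets differed from the measured one, so these shares compare only roughly. The untreated count was not shown to exceed counting error. Without clusters 3, 5 and 6 the A.G.-ES count was 356 of 4998 genes measured, and the untreated count over those 4998 genes was 28.

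Over all 6301 genes, the log2 ratios of the untreated and A.G.-ES libraries were close to unrelated (Pearson correlation 0.013), and 53.2% had the same sign. A count of 9 genes (0.143%) reached 1.5-fold higher in the members of both libraries, and 13 (0.206%) reached 1.5-fold lower. These genes were picked for being alike in both libraries. Without clusters 3, 5 and 6 these counts were 6 and 4. ACVR1B, a type I receptor for activin, led the first group, at 10.1 CPM in members against 3.60 CPM in SOX4=0 cells of the untreated library (2.82-fold, 1.46 to 5.98) and 27.9 against 11.8 CPM in the A.G.-ES library (2.36-fold, 1.45 to 3.87). It rested on few cells: 17 and 13 members held it, and a single cell gave 15 of the 53 untreated and another 13 of the 40 A.G.-ES UMIs. Its level was not ordered by SOX4 count in the same way in both libraries, since members with at least 3 SOX4 UMIs stood at 5.11 CPM in the untreated and 69.2 CPM in the A.G.-ES library.

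Other genes of this group were spread over more cells. KCTD1, a BTB-domain protein, was found in 66 and 42 members with at most 3 UMIs in a cell, at 13.97 against 7.52 CPM in untreated and 33.5 against 13.3 CPM in A.G.-ES cells. Its A.G.-ES ratio, 2.53-fold (1.61 to 3.996), dropped from a log2 value of 1.34 to 0.55 without clusters 3, 5 and 6. PLK2, a polo-like kinase, stood at 30.4 against 17.7 CPM in untreated cells (1.72-fold, 1.26 to 2.39) and 38.4 against 18.3 CPM in A.G.-ES cells (2.10-fold, 1.41 to 3.14), and at a log2 ratio of 1.85 without those clusters. It rested on 126 untreated and 28 A.G.-ES members. PLK2 stood at 1.31 and 2.39 CPM in B cells, 4.69 and 6.66 CPM in CD4 T cells and 19.3 and 20.8 CPM in monocytes.

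FAM78A stood at 19.3 against 10.8 CPM and 27.2 against 13.3 CPM. BAZ2B, a bromodomain protein, was at 20.3 against 13.1 CPM in untreated and 50.3 against 23.3 CPM in A.G.-ES cells, and A.G.-ES members showed 76.4 and 64.1 CPM at 2 and at least 3 SOX4 UMIs, against 28.2 CPM at 1. Monocytes held BAZ2B at 306 and 291 CPM. Without clusters 3, 5 and 6 the A.G.-ES log2 ratios of FAM78A and BAZ2B were 0.79 and 0.73. KPNA5, a nuclear import receptor, CCDC85B and ZNF212, a zinc-finger protein, fell short of the 50-UMI minimum without them and completed the named genes of the group, with folds between 1.51 and 1.74. The A.G.-ES intervals of these last 3 genes included 1, as did the untreated interval of CCDC85B. None of the 8 named genes was above 50.3 CPM, the level of BAZ2B in A.G.-ES members.

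Genes lower in the members of both libraries included several that led the low-SOX4 clusters. SETBP1, a SET-binding nuclear protein, stood at 9.57 CPM in members against 19.9 CPM in SOX4=0 untreated cells (2.09-fold lower, 1.41 to 3.09) and at 7.69 against 67.0 CPM in A.G.-ES cells (8.72-fold lower, 4.76 to 17.8). KLHL29, a kelch-like protein, stood at 7.84 against 14.7 CPM and 10.5 against 80.2 CPM. Neither followed the SOX4 count step by step: SETBP1 stood at 9.30, 16.0 and 6.04 CPM in untreated members with 1, 2 and at least 3 SOX4 UMIs. The genes were found in 32 and 21 untreated and 7 and 9 A.G.-ES members. Both were higher in other T cells, SETBP1 at 234 and 141 CPM in CD8 T cells and KLHL29 at 261 and 127 CPM in CD4 T cells.

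DOCK9, an activator of the GTPase CDC42, was at 13.97 against 26.8 CPM and 16.1 against 35.5 CPM (1.92-fold and 2.21-fold lower). RYK, a receptor for Wnt ligands, stood at 41.5 against 66.1 CPM in untreated cells (1.59-fold lower, 1.31 to 1.94) and 25.9 against 49.4 CPM in A.G.-ES cells (1.91-fold lower, 1.32 to 2.83). RYK was 37.7 CPM in untreated members with at least 3 SOX4 UMIs and 17.9 CPM in such A.G.-ES members, and its A.G.-ES log2 ratio was -0.79 without clusters 3, 5 and 6. HNRNPLL, a splicing regulator of CD45, stood at 24.5 against 37.9 CPM and 37.7 against 63.4 CPM, but at a log2 ratio of -0.23 in A.G.-ES cells without those clusters. IGF2, TSPAN2, ANXA3 and NFKBID were the other named genes, with untreated log2 ratios from -0.83 to -0.69; the untreated interval of ANXA3 and the A.G.-ES interval of NFKBID included 1. Apart from RYK and HNRNPLL, none of the named lower genes reached the 50-UMI minimum once clusters 3, 5 and 6 were taken out.

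**Figure D3:**
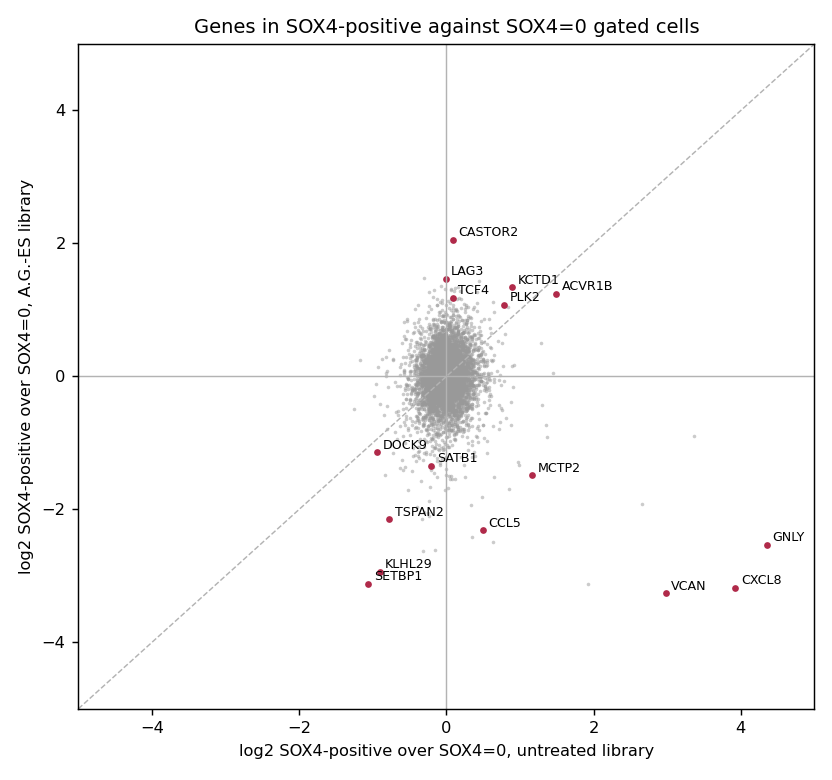
Each point is 1 of 6301 genes, placed by its log2 ratio of CPM in SOX4-positive over SOX4=0 gated cells in the untreated library (horizontal axis) and in the A.G.-ES library (vertical axis); the dashed line marks equal ratios and named genes are red. Most genes lie near 0 on the horizontal axis and spread wider on the vertical one, KCTD1, PLK2 and ACVR1B are positive in both libraries, SETBP1 and KLHL29 negative in both, and GNLY, CXCL8, VCAN and MCTP2 positive on the horizontal axis and negative on the vertical one.

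Cytotoxic genes separated members from SOX4=0 cells differently in the libraries. Of 12 list genes in the files, 10 were measured. In the untreated library 2 of these were higher in members, 0 were lower and the median log2 ratio was 0.32, while the A.G.-ES library had 0 higher and 7 lower, with a median of -0.72. Over all genes, 0.952% were higher and 0.682% lower in the untreated library, and 5.48% and 5.9% in the A.G.-ES library; these shares stand behind each list count of this contrast. The untreated genes were GNLY, the granule protein granulysin, and CTSW, a cathepsin of cytotoxic cells; 1 untreated member gave 136 of the 245 GNLY UMIs. CCL5, a chemokine of cytotoxic cells, stood at 14.7 CPM in members and 10.5 CPM in SOX4=0 untreated cells, and at 68.5 against 341 CPM in A.G.-ES cells. It was found in 28 untreated and 39 A.G.-ES members. Without clusters 3, 5 and 6 the A.G.-ES ratio of CCL5 went from a log2 value of -2.32 to 0.16 and the median of the list to 0.01. CCL5 reached 898 and 2446 CPM in CD8 T cells of the same libraries, and 25 and 31 cells with the highest doublet scores lay in untreated cluster 5 and A.G.-ES cluster 6. The part of doublets and of free RNA in these counts was not tested.

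Of 10 effector transcription factors measured, none passed 1.5-fold in the untreated library (median 0.04), and 0 were higher and 5 lower in A.G.-ES members (median -0.37; over all genes 5.9% were lower). Without clusters 3, 5 and 6 that median was 0.08. ID2, which restrains E-protein factors, stood at 17.6 against 20.9 CPM in untreated and 10.5 against 43.7 CPM in A.G.-ES cells (4.17-fold lower, 2.43 to 7.68). RORA, a nuclear receptor of effector and IL-17-making cells, was at 199 against 225 CPM and 269 against 497 CPM. Without those clusters RORA had an A.G.-ES log2 ratio of -0.06, and ID2 fell short of the 50-UMI minimum. IL2RA, the alpha chain of the IL-2 receptor, named here after its values were seen, stood at 4.40 against 3.92 CPM in untreated cells and 6.29 against 36.5 CPM in A.G.-ES cells.

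Naive and early T-cell genes differed in both directions in the A.G.-ES library. Of 14 naive and central memory genes measured, 0 passed in the untreated library (median 0.00), and 3 were higher and 2 lower in A.G.-ES members (median 0.30, or 0.10 without clusters 3, 5 and 6; over all genes 5.48% were higher and 5.9% lower). Of 8 immature T-cell genes, IKZF2 was higher in untreated members, and TOX and HIVEP3 were higher and IKZF2 lower in A.G.-ES members (medians 0.08 and 0.21). FOXP1, a quiescence factor, was at 876 against 862 CPM in untreated cells and 796 against 485 CPM in A.G.-ES cells (1.64-fold, 1.52 to 1.78). SATB1, which also belongs to this list, went the other way, at 524 against 603 CPM and 410 against 1044 CPM. Taking out clusters 3, 5 and 6 brought the A.G.-ES log2 ratios of FOXP1 and SATB1 to 0.33 and 0.04.

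TOX, a factor of thymic development and of persistent stimulation, stood at 216 against 215 CPM in untreated and 187 against 98.5 CPM in A.G.-ES cells. CADM1, an adhesion molecule, was at 127 against 132 CPM and 186 against 84.2 CPM, and TCF4, an E-protein, at 156 against 147 CPM and 63.6 against 27.9 CPM. LAG3, an inhibitory receptor, was at 9.76 against 9.81 CPM and 23.8 against 8.60 CPM (2.76-fold, 1.59 to 4.87), and held a log2 ratio of 0.90 without clusters 3, 5 and 6. TOX, CADM1 and TCF4 came to 0.48, 0.44 and 0.56 without them, each under the 1.5-fold mark. CASTOR2, a protein of the mTORC1 pathway, had the highest A.G.-ES ratio of the measured genes with a symbol, at 34.2 against 8.24 CPM (4.16-fold, 2.48 to 7.15), and stood at 11.5 against 10.8 CPM in the untreated library. Without clusters 3, 5 and 6 its A.G.-ES log2 ratio was 1.28. Untreated members stood between 10.4 and 13.1 CPM whatever their SOX4 count, and A.G.-ES members with 1, 2 and at least 3 SOX4 UMIs at 25.2, 27.3 and 56.4 CPM.

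Of 13 measured genes of TGF-beta signalling, a pathway with which SOX4 is associated, 1 was higher in untreated members (ACVR1B), and 2 were higher and 2 lower in A.G.-ES members (medians 0.03 and 0.10), against 0.952% of all genes higher in the untreated and 5.48% higher and 5.9% lower among A.G.-ES cells. ACVR1B and TGIF1, a corepressor, were the higher pair, with A.G.-ES log2 ratios of 1.24 and 0.67 (2.07 and 0.68 without clusters 3, 5 and 6). The lower ones were TGFBR2, the type II receptor, at -0.73 (-0.48 without them), and SKIL, a repressor of SMAD proteins, at -0.73, which then fell short of the 50-UMI minimum. Of 9 Wnt pathway genes, none passed among untreated cells and 1 was higher in A.G.-ES members, namely TLE4, a transcriptional corepressor, at 301 against 178 CPM (log2 0.76, or 0.19 without clusters 3, 5 and 6). SYNCRIP and CTNNB1, the 2 measured genes of the list of SoxC factors and their partners, had log2 ratios from -0.09 to -0.01 in both libraries. SOX11 and SOX12, the other SoxC genes, gave 1 and 17 UMIs in all untreated members and 0 and 6 in all A.G.-ES members.

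The gamma-delta and SOX13 programme, gate genes aside, had 0 of 8 past 1.5-fold in untreated cells, and 1 higher and 1 lower in A.G.-ES members. ID3, an inhibitor of E-proteins, was the higher one, at a log2 ratio of 0.80 (0.22 without clusters 3, 5 and 6). ZBTB16, a factor of innate-like T cells, was the lower one, at -1.04, and fell short of the 50-UMI minimum without those clusters.

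Several lists had few genes past 1.5-fold. None of the 11 measured genes of the receptor complex and its signalling passed in the untreated library, and 1 was higher in A.G.-ES members (UBASH3A, at 51.7 against 33.7 CPM, log2 0.62, or 0.51 without clusters 3, 5 and 6). Interferon-stimulated genes had 0 of 16 past 1.5-fold in untreated and 1 lower in A.G.-ES members (IFIH1, 41.2 against 66.6 CPM, log2 -0.69, or -0.46 without those clusters). Heat shock chaperones had 0 of 10 in both. Immediate early genes, which also respond to cell handling, had 0 of 16 in untreated and 1 lower in A.G.-ES members; JUN stood at 470 against 317 CPM and 410 against 394 CPM. The IL-17 axis had 0 of 7 among untreated cells and 2 lower in A.G.-ES members, RORA and the AP-1 factor BATF, against 5.9% lower over all genes. Without clusters 3, 5 and 6 the A.G.-ES log2 ratio of RORA was -0.06. IL17F gave 1 UMI in all untreated and 2 in all A.G.-ES members, and IL17A and IL23R 0, so these genes could not be measured at this depth. MKI67 gave 10 and 6 UMIs in all members and TOP2A 27 and 1.

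Members of the A.G.-ES library were also set against those of the untreated library, a comparison in which treatment and the animals' sex cannot be told apart. Of 7537 genes with at least 50 UMIs, 430 (5.71%) were higher by 1.5-fold or more and 1072 (14.2%) lower by as much. The counting interval lay off 1 for 1096 of these genes. The median log2 ratio of all genes was -0.13. TMM scaling, which sets the bulk of genes level, moved it to -0.06 and gave 541 higher and 846 lower, or 39.0% higher among those counted instead of 28.6%. SOX4=0 cells gave 512 higher (7.07%) and 1083 lower (15%) of 7242 genes, close to the shares in members.

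PRLH, which encodes prolactin-releasing peptide, had the highest ratio among genes with a symbol: 2 UMIs in 1 untreated member and 79 UMIs in 51 A.G.-ES members, or 0.383 against 55.2 CPM (144-fold, 38.6 to 1212). It was as far apart in SOX4=0 cells, at 0.327 against 66.3 CPM. COX3, a mitochondrial subunit of cytochrome c oxidase, stood at 147 and 1900.3 CPM in members, 179 and 1866 CPM in B cells and 330 and 4123 CPM in monocytes. ND1, a mitochondrial complex I subunit, was at 204 and 690 CPM. GSDMA, a gasdermin, stood at 2.68 and 26.5 CPM in members and at 0 and 0.553 CPM in CD8 T cells. LUZP2 stood at 9.76 and 49.6 CPM in members and 8.01 and 54.2 CPM in B cells, and CCL5, REPS2, PPP1R9B, POU5F1, GPC6, CASTOR2 and ZCCHC3 were the other named genes, with folds from 2.90 to 4.65.

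Lower in the A.G.-ES members were several genes with almost no transcript there. TRPM1, a cation channel, gave 58 UMIs in 51 untreated members and 0 in the A.G.-ES members, at least 5.29-fold lower against a floor of 3 counts over the group. IGF2BP3, an RNA-binding protein, gave 51 against 0 UMIs, at least 4.66-fold lower. VIPR2, a receptor for vasoactive intestinal peptide, had 258 UMIs in 197 untreated members (49.4 CPM) and 7 in 7 A.G.-ES members (4.89 CPM), 10.1-fold lower (4.83 to 25.4). It stood at 60.2 and 3.22 CPM in SOX4=0 cells but at 13.0 and 12.4 CPM in CD4 T cells, where the libraries were close. SNX30, IL31RA, SLC26A7, LRGUK, RASGRF2, UACA and PALLD gave 53 to 98 UMIs in untreated and 1 to 3 in A.G.-ES members. IL31RA, a cytokine receptor, was as low elsewhere, at 22.3 and 0.239 CPM in B cells. JCHAIN, the joining chain of secreted antibody, gave 56 and 2 UMIs, while B cells held it at 433 and 166 CPM. The part of free RNA from B cells in JCHAIN was not tested.

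**Figure D4:**
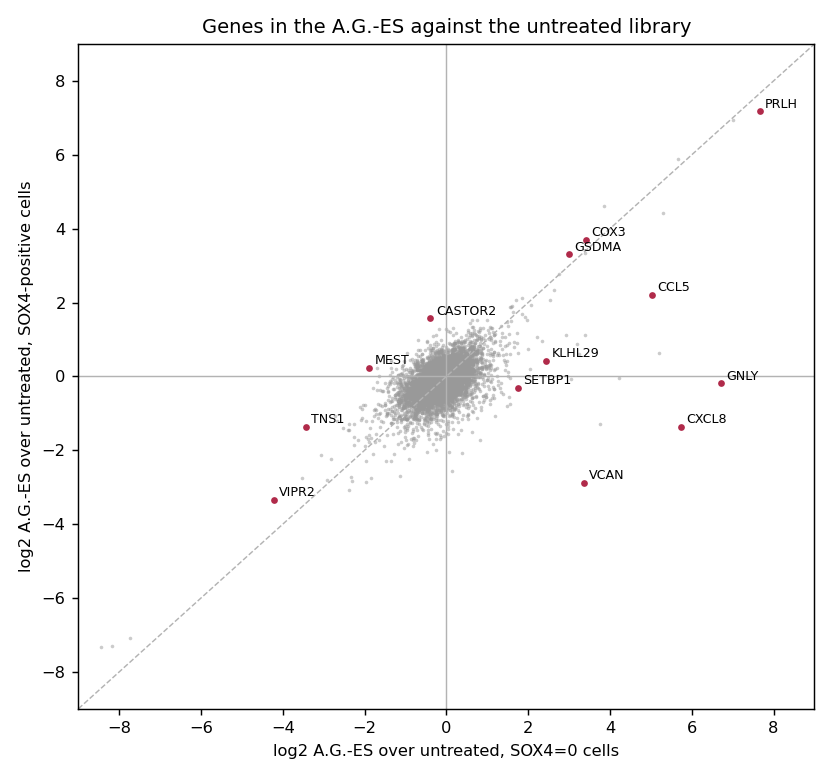
Each point is 1 of 7106 genes with at least 50 UMIs in both gates, placed by its log2 ratio of CPM in the A.G.-ES over the untreated library in SOX4=0 cells (horizontal axis) and in SOX4-positive cells (vertical axis); the dashed line marks equal ratios and named genes are red. PRLH, COX3, GSDMA and VIPR2 lie near the line, CASTOR2 and MEST lie above it, and GNLY, CXCL8, VCAN and CCL5 lie far to the right of it.

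Some genes differed between libraries in one of the gated groups and less in the other. CASTOR2 stood at 11.5 and 34.2 CPM in untreated and A.G.-ES members (2.98-fold, 2.00 to 4.42) and at 10.8 and 8.24 CPM in SOX4=0 cells. TNS1, a focal adhesion protein close to absent from CD4 and CD8 T cells, was at 32.5 and 12.6 CPM in members and 35.0 and 3.22 CPM in SOX4=0 cells. RNF217 stood at 20.7 and 27.9 CPM in members and 25.5 and 10.0 CPM in SOX4=0 cells, and TMEM97 at 10.1 and 11.9 against 16.4 and 5.01 CPM. MEST, an imprinted gene, stood at 17.2 and 20.3 CPM against 19.9 and 5.37 CPM, but 6 A.G.-ES members held its 29 UMIs, 1 of them with 19. These differences between groups were not tested.

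By lists, interferon-stimulated genes were the group with most genes higher in A.G.-ES members: 5 of 20 measured were higher and 0 lower, with a median log2 ratio of 0.39, against 5.71% higher over all genes. RSAD2, an antiviral enzyme, was at 68.5 and 136 CPM (1.98-fold, 1.65 to 2.36), EPSTI1 at 149 and 233 CPM, and HERC6 at 17.4 and 28.6 CPM. SOX4=0 cells had 3 of 17 higher, with a median of 0.34. Costimulatory and inhibitory receptors had 2 of 5 higher, ICOS at 45.5 and 78.9 CPM and LAG3 at 9.76 and 23.8 CPM.

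Of 13 TGF-beta signalling genes in members, 1 was higher and 5 lower, with a median of -0.33. SOX4=0 cells had 0 of 12 higher and 5 lower, with a median of -0.52. Over all genes 14.2% were lower in members and 15% in SOX4=0 cells, with a median of -0.13 in each. TGFBR2, the type II receptor, was at 149 and 79.6 CPM (1.87-fold lower, 1.53 to 2.30) in members and at 144 and 132 CPM in SOX4=0 cells. SMAD3, a signal transducer, stood at 95.5 and 51.7 CPM, and ACVR1, another type I receptor, at 34.1 and 17.5 CPM, whereas ACVR1B stood at 10.1 and 27.9 CPM. Wnt pathway genes had 0 of 11 higher and 3 lower in members (median -0.23), against 1 higher and 4 lower of 11 in SOX4=0 cells (median -0.36) and 14.2% lower over all genes of members. The 3 were CTNNB1, the pathway's signal transducer beta-catenin, at 94.5 and 60.1 CPM, LRP5, a coreceptor, at 42.9 and 22.4 CPM, and RNF43, a ligase that removes Wnt receptors, at 11.5 and 3.49 CPM. LEF1, a nuclear partner of beta-catenin, was at 599 and 413 CPM, a log2 ratio of -0.54.

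Naive and central memory genes had 0 of 14 higher and 3 lower in A.G.-ES members (median -0.23), against 14.2% lower over all genes, and SOX4=0 cells had 2 higher and 4 lower (median -0.41). The 3 included BACH2, a repressor of effector genes, at 2161 and 1309 CPM and FOXO1 at 207 and 106 CPM. BCL2, a survival protein, was 2.28-fold lower (1.88 to 2.79), at 188 and 82.4 CPM. RUNX3, a factor of cytotoxic lineages, was at 266 and 143 CPM. Of 10 cytotoxic genes measured in members, 2 were higher and 0 lower in A.G.-ES cells, with a median of -0.12. SOX4=0 cells had 6 of 11 higher, against 7.07% over all genes, 0 lower and a median of 1.43. The lists of heat shock chaperones, homing receptors, immature T-cell genes and receptor signalling had no member past 1.5-fold between libraries in the members, with medians of 0.08, 0.06, -0.16 and 0.16.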

How the data were processed

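Single-cell transcript counts were analysed from 2 sheep libraries, 1 untreated and 1 labelled A.G.-ES. The files hold whole-number UMI counts per gene and barcode, as the authors deposited them; per the labels' protocols the libraries were made with the SeekOne DD 3′ kit. No aligner, counting program, genome build or cell caller is given in the sources used here. The 26814 rows carry 26761 names, and 53 rows that share a name with another were summed. CD3G, the gamma-delta receptor genes and WC1 were not found by name and were not analysed here. The cell gate, lists and members were chosen with earlier results of these data known.

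Counts were summed over the cells of each group and library and expressed as CPM. For SOX4-positive over SOX4=0 cells a gene was measured when both groups together held at least 50 UMIs in each library, and for A.G.-ES over untreated when the cells of both libraries together held 50; it was counted as different at 1.5-fold. With 1 library per group no test was possible. Intervals are 95% exact intervals (Clopper-Pearson for shares, Poisson for levels, conditional binomial for ratios) and cover counting error only. A fold against 0 UMIs uses a floor of 3 counts over the group. The ratio code was tested on simulated counts in which 200 genes were changed 2-fold. For members over SOX4=0 cells, untreated and A.G.-ES, and for A.G.-ES over untreated members, 94%, 94.5% and 89% of these were recovered. Of the unchanged genes, 2.86%, 4.50% and 5.30% reached 1.5-fold from counting error alone. The simulations covered 8023, 6373 and 7543 genes, sets that differ from those measured here. Named genes with a symbol were taken from the 15 highest and 10 lowest by the smaller of the 2 libraries' log2 ratios of one sign, the 12 highest and 12 lowest in A.G.-ES over untreated members, the 5 each way farthest from their ratio in SOX4=0 cells, and, per list, up to 4 with most UMIs and up to 2 each way with the largest ratios. CASTOR2 as the highest A.G.-ES ratio, IL2RA, MCTP2 and the leading genes of clusters were chosen after their values were seen. So were CD2, CD247, CCL5, CXCL8, GNLY, VCAN, CTSW, BLNK, CD14, CD34, RAG1, RAG2, DNTT and PTCRA. The same holds for ZBTB16, SOX11, SOX12, IL17A, IL17F, IL23R, MKI67 and TOP2A. Some of these also belong to a rule above or to a marker list.

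Neighbours (15 per cell, 20 principal components, 1500 variable genes, without gate, mitochondrial and Y-linked genes) and Leiden clusters (resolution 0.5) were computed per library with scanpy 1.11.5. Doublets were scored with its Scrublet. The top-ranked barcodes, at 0.8% per 1000 barcodes, were taken as the highest scores, 523 untreated and 715 A.G.-ES ones. Scrublet's own threshold marked 249 and 219. Doublets were not removed in the reported values. Other steps used Python 3.11.15, numpy 2.4.6, scipy 1.17.1, and, for TMM, edgeR 4.0.16 in R 4.3.3. Alternatives were doublets left out, equal weight per cell, TMM, thinning, stricter gates, other count minimums, no shared barcodes, and no A.G.-ES clusters 3, 5 and 6. Some genes within the rule are not reported here.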

Additional observations from a re-analysis of the deposited data

Results flagged for a closer look

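For 4 genes the ratio of SOX4-positive to SOX4=0 cells pointed up in the untreated and down in the A.G.-ES library, with counting intervals off 1 in both. The difference between the libraries was not tested, since each holds 1 sample. CXCL8, a neutrophil chemokine, gave 104 UMIs in untreated members and 4 in SOX4=0 cells (15.2-fold higher, 5.77 to 56.9), and 11 and 195 UMIs in the A.G.-ES library (9.09-fold lower, 4.97 to 18.5). The log2 ratios differed by 7.11. A single untreated member gave 53 of the 104 UMIs, and monocytes held CXCL8 at 8163 and 6142 CPM.

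GNLY, granulysin of cytotoxic granules, gave 245 and 7 UMIs in the untreated library and 59 and 666 in the A.G.-ES library, a difference of 6.89 in log2 ratio. Its A.G.-ES log2 ratio was -2.53, or -0.90 with doublets left out and -0.62 without A.G.-ES clusters 3, 5 and 6. Its untreated log2 ratio was 4.36, or 3.38 with doublets left out. Cluster 6 held GNLY at 1286 CPM. CXCL8, VCAN and MCTP2 fell short of the 50-UMI minimum without these clusters, and likewise without doublets. Of the 245, 136 came from 1 cell, and CD8 T cells held GNLY at 5134 and 5089.8 CPM. VCAN, the proteoglycan versican, gave 108 and 8 UMIs against 4 and 75, a difference of 6.25; 5 untreated members held it, 1 of them with 83 UMIs, and monocytes stood at 5515 and 4291 CPM. MCTP2, a membrane protein with C2 domains, gave 46 and 12 UMIs against 19 and 104, a difference of 2.65, and was spread over 34 untreated members with at most 4 UMIs each; its untreated log2 ratio of 1.17 was 0.44 with equal weight per cell. The part of doublets and free RNA in these 4 genes was not tested.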

How the results depend on the processing

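SOX4 was detected in fewer A.G.-ES than untreated gated cells at every depth: thinning to 1500, 1000 and 2500 UMIs gave 37.6%, 28.5% and 50.8% of untreated and 19.9%, 14.1% and 25.9% of A.G.-ES cells, with differences of 17.7 and 14.3 points at 1500 and 1000 UMIs. The difference was smaller without A.G.-ES clusters 3, 5 and 6, where 301 members and 344 SOX4=0 cells remained, against 1228 and 778 untreated ones. Those clusters were chosen for their low SOX4 share, so a smaller difference follows from that choice. Counts of genes past 1.5-fold moved with the count minimum, the depth, the gate and the clusters, and so did the number of genes measured. Between SOX4-positive and SOX4=0 cells, 6301 genes were measured in the main setting, and 8475 and 4496 at minimums of 20 and 100. Thinning to 1500 UMIs left 3389, and leaving out clusters 3, 5 and 6 left 4998. In that order, the A.G.-ES share past 1.5-fold was 11.4%, 18.5%, 6.74%, 11.3% and 7.12%. The untreated share was 1.63%, 5.49%, 0.445%, 1.18% and 0.560%. A minimum of 20 UMIs gave 465 untreated and 1567 A.G.-ES genes between SOX4-positive and SOX4=0 cells, 43 higher and 63 lower in both, 807 higher and 1641 lower in A.G.-ES members, and 27 untreated, 75 A.G.-ES and 27 higher list genes. A minimum of 100 gave 20 and 303, 2 and 7, 227 and 710, and 3 untreated list genes. Thinned to 1500 UMIs, the counts were 40 and 382, 2 and 3, 262 higher, and 4 and 22 list genes. Members with at least 2 SOX4 UMIs gave 25 genes lower in both libraries and 11 untreated list genes, and leaving out doublets gave 4 of the latter. Leaving out A.G.-ES clusters 3, 5 and 6, an alternative chosen after seeing the data, as were thinning to 2500 UMIs and dropping shared barcodes, gave 28 and 356 genes, 4 lower in both, and 4 and 10 list genes. It also turned the sign of the cytotoxic median (0.0066) and of medians that lay under 1.5-fold. Among these were effector transcription factors (-0.37 to 0.08), cytokine receptors (-0.31 to 0.06) and immediate early genes (-0.28 to 0.05). Of single genes past 1.5-fold, it turned CCL5 (0.16), ZEB2 (0.37), SATB1 (0.037) and CTSW (0.67) in A.G.-ES SOX4-positive over SOX4=0 cells. It also turned IGF2 (-0.31) in A.G.-ES over untreated members. All are log2 ratios. Fewer cells and genes enter under that setting. Over all settings 526 list medians moved by under 0.2, 43 by more, and 1 that lay past 1.5-fold turned sign. For single genes, 4417 values stayed within the counting interval, 172 left it and 5 that lay past 1.5-fold turned sign. Sign changes of smaller ratios are counted among the others. An example is GNLY in A.G.-ES over untreated members, at -0.19 and at 0.63 with doublets left out. No paired analysis was possible because each group is 1 library and the labels give no replicate numbers.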
